A study of Mus musculus with 48 samples.

Results

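Urea cycle and amino acid catabolism genes were examined in the livers of mice that differed in sex, diet and the labelled loss of PPARgamma in hepatocytes. The members are 10 genes taken by gene name from the joined count matrix: Cps1, Otc, Ass1, Asl and Arg1 of the urea cycle, the aminotransferase genes Got1, Gpt and Tat, and Cdo1 and Csad of cysteine and taurine metabolism. They are 10 of the 29221 genes in the matrix. Each was found once, and all 10 passed the filter on low counts in each of the 23 comparisons.

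The liver disposes of the nitrogen of amino acids as urea. Aminotransferases collect amino groups onto glutamate and aspartate, and the urea cycle joins the freed ammonia and the aspartate nitrogen into urea, with its first steps in hepatocyte mitochondria and the later ones in the cytosol. Cysteine is drawn off by oxidation to cysteine sulfinate, from which hypotaurine and then taurine, a conjugation partner of bile acids, are made. Several of these genes are known to be induced by glucagon, glucocorticoids and fasting.

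RNA from whole liver was sequenced for 48 adult mice, 1 library per mouse. All mice carried floxed PPARg alleles. After 16 weeks on diet they received AAV8-TBG-Cre (labelled knockout) or AAV8-TBG-null (control). The TBG promoter drives expression in hepatocytes, so the other cells of the liver keep the gene. The low fat diet (LF, D12450J) was given to females alone and the high fat diet (HF, D12492) to both sexes, each for 34 weeks in all. The HFCF groups, of both sexes, ate the HF diet for 18 weeks and then D16010101 for 16 weeks. D16010101 is a diet with high fat, cholesterol and fructose. HFCF and HF are compared as whole diets. The labels call the LF livers healthy, the HF livers steatotic and the HFCF livers non-alcoholic steatohepatitis. Each of the 4 male groups (HF and HFCF, control and labelled knockout) held 6 mice, and each of the 6 female groups (LF, HF and HFCF, control and labelled knockout) held 4.

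Libraries held 15338239 to 22072884 reads on genes. Pparg was not lower in the labelled knockouts: in HFCF males it measured 55.9 ± 6.05 CPM (read counts scaled to library size; SD, n = 6) against 32.0 ± 5.59 in controls. The part of the gene that is deleted was not read separately, so its total does not check the labels, and "labelled knockout" is used throughout. Cidec, a lipid droplet gene, was lower in labelled knockouts on the HF diet in males, at 5.24 ± 0.797 CPM against 133.8 ± 15.7 CPM, and in LF females it was 6.12 ± 1.38 against 6.96 ± 2.21 CPM. Hepatocyte markers (Alb, Apoa1, Apob, Ttr, Fgb, Ahsg and Serpinc1) together took 5.54% to 12.3% of the reads of a library. Summed markers of adipocytes took at most 2.49e-05%, of kidney at most 1.78e-05% and of pancreas at most 0.000118%.

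The 10 genes were all well covered: the smallest read count of a member in any library was 810, for Csad. Levels per kilobase use the deposited gene length, which counts the exon bases of all annotated transcripts of a gene (4241 for Otc, 4831 for Asl). A gene read mainly from a shorter transcript is therefore understated. Averaged over the 48 libraries, Ass1 stood at 1211 CPM per kb and Cdo1 at 903 CPM per kb. Arg1 followed at 505 CPM per kb and Cps1 at 468 CPM per kb. Tat measured 296, Gpt 114, Asl 103, Got1 98.0, Otc 86.0 and Csad 44.8 CPM per kb. Ass1 was the 31st and Cps1 the 37th most counted gene of the matrix, and together the 5 urea cycle genes took 0.45% to 1.27% of the reads of a library. Csad shares 278 of its 3831 exon bases with Zfp740 on the opposite strand. Zfp740 had at most 1116 reads in a library, and in these libraries, which do not keep strand, reads of the shared bases cannot be told apart.

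The deposited tables place the urea cycle genes, in GRCm38, as follows: Cps1 (ENSMUSG00000025991) at chr1:67123026-67231259 on the plus strand, Otc (ENSMUSG00000031173) at chrX:10252305-10321024 on the plus strand, Ass1 (ENSMUSG00000076441) at chr2:31470207-31520672 on the plus strand, Asl (ENSMUSG00000025533) at chr5:130011258-130029247 on the minus strand and Arg1 (ENSMUSG00000019987) at chr10:24915221-24927484 on the minus strand. The aminotransferase genes are Got1 (ENSMUSG00000025190) at chr19:43499752-43524605 on the minus strand, Gpt (ENSMUSG00000022546) at chr15:76695716-76699686 on the plus strand and Tat (ENSMUSG00000001670) at chr8:109990437-109999803 on the plus strand. The cysteine genes are Cdo1 (ENSMUSG00000033022) at chr18:46713205-46728342 on the minus strand and Csad (ENSMUSG00000023044) at chr15:102176999-102204724 on the minus strand. Counts were taken over whole genes, so no value belongs to a single exon or UTR.

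**Figure D1:**
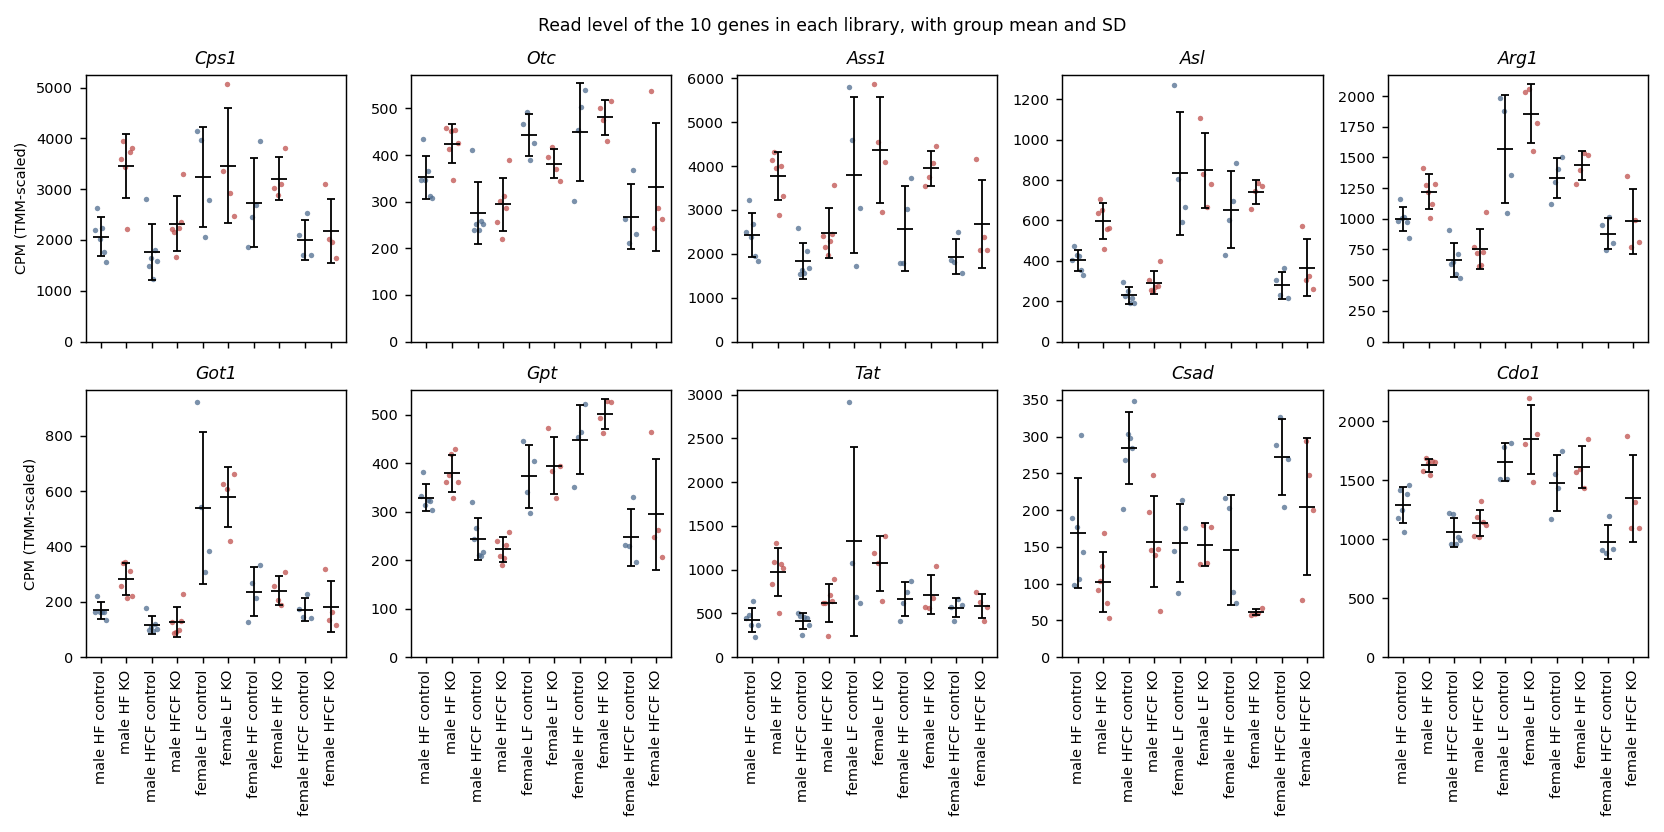
CPM, TMM-scaled (y axis), of each of the 10 genes in the 48 libraries, by group (x axis; KO, labelled knockout). Points are libraries, blue for controls and red for labelled knockouts, and black bars give the group mean and SD. For Got1 the group means run from 116.6 CPM in male HFCF controls to 578.3 CPM in female LF labelled knockouts, while for Csad the highest mean, 284.1 CPM, is that of male HFCF controls.

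The spread over groups differed between genes. The ratio of the highest to the lowest group mean was 4.96 for Got1, 4.66 for Csad, 3.71 for Asl, 3.19 for Tat and 2.8 for Arg1. It was 2.37 for Ass1, 2.26 for Gpt, 1.96 for Cps1, 1.89 for Cdo1 and 1.79 for Otc. Male HFCF controls had the lowest mean of 6 of the genes (Cps1, Ass1, Asl, Arg1, Got1 and Tat), and female LF labelled knockouts had the highest mean of 6 (Cps1, Ass1, Asl, Arg1, Got1 and Cdo1). For Arg1, all 4 HFCF groups lay below the HF groups and both LF groups above them, from 662.6 ± 139.7 CPM in male HFCF controls to 1857.8 ± 239.2 CPM in female LF labelled knockouts. Csad ran in another order, with its lowest mean in female HF labelled knockouts (60.9 ± 4.27 CPM) and its highest in male HFCF controls (284.1 ± 48.8 CPM). Of the 9 pairs of neighbouring groups in each gene's order, 1 pair in all was separated by more than the summed SDs: for Asl, male HF controls (402.2 ± 51.7 CPM) lay below male HF labelled knockouts (596.3 ± 88.8 CPM).

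Promoter sequence is shown for 4 members, to set 3 genes that rose in the labelled knockout males described next (Ass1, Got1 and Tat) beside Csad, which was lower there without passing the test. Each is the 250 bases before the RefSeq start (GRCm38.p6), read 5′ to 3′ along the gene. The positions are chr2:31470020-31470269 (plus strand, Ass1), chr19:43524606-43524855 (minus strand, Got1), chr8:109990186-109990435 (plus strand, Tat) and chr15:102205053-102205302 (minus strand, the upstream of the 2 RefSeq starts of Csad). Capitals mark matches, on either strand, to the core promoter motif TATAAA, the CCAAT box, the GC box GGGCGG, the cAMP response element TGACGTNA, the nuclear receptor element AGGTCA or the glucocorticoid response element; none of these matches overlap.
Ass1: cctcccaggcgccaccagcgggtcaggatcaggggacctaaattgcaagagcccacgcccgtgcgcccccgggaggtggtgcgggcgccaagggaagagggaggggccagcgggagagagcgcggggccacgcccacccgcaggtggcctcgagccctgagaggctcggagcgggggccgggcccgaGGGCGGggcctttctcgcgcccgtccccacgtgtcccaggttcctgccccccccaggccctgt
Got1: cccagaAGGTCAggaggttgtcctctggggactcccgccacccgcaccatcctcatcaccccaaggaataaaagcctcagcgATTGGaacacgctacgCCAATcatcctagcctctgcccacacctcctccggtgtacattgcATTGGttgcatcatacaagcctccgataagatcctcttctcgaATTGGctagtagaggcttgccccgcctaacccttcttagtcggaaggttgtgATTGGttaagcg
Tat: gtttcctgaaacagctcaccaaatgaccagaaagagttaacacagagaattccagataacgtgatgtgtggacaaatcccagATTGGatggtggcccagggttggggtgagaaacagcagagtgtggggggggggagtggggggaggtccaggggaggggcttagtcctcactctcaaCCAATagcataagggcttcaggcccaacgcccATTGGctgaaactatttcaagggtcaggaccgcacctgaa
Csad: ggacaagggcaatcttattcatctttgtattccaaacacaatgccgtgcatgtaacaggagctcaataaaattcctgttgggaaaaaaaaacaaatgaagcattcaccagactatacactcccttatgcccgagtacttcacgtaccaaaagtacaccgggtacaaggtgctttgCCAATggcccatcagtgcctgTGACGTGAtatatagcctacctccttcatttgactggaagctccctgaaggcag
In the Ass1 window 75.6% of the bases were G or C, against a median of 52.4% over 32536 promoter windows of this length. It held 1 GC box, whose first base lies 63 bases before the RefSeq start. The gene as placed above starts at chr2:31470207, inside this window and at the first base of the GC box. The GC box thus lies within the gene as counted. The Got1 window held 5 CCAAT boxes, with first bases 168, 152, 107, 64 and 12 bases before the start, and 1 nuclear receptor element. The Tat window held 3 CCAAT boxes, at 168, 72 and 40 bases. The Csad window held 1 CCAAT box at 75 bases and 1 cAMP response element at 54 bases. Of the 32536 windows, 33.8% held a CCAAT box, 33.0% a GC box, 14.0% a nuclear receptor element, 12.3% the core promoter motif, 2.53% a cAMP response element and 0.39% a glucocorticoid response element. No window of these 4 held the core promoter motif or the glucocorticoid response element, which says only that these letters are not in these windows. RefSeq windows were used for 5 members. The fifth, Otc, held none of these letters in its window. The window at the second start of Csad, chr15:102189044-102189293, held 1 GC box. Cps1, Asl, Arg1, Gpt and Cdo1 are not shown.

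In HF males, genes of the urea cycle and of amino group transfer were higher in labelled knockouts than in controls. Of the 10 genes, 7 rose and 0 fell at an adjusted p under 0.05 (edgeR's quasi-likelihood test with Benjamini-Hochberg adjustment over all genes tested), against 8.57% of all tested genes that rose and 9.88% that fell. The median log2 fold change of the 10 was 0.44, beside 0.00 for all tested genes. The groups did not overlap for 1 of the 10, Cdo1, against 7.95% of all tested genes. The 10 genes were chosen with earlier results of these data known, so these shares are descriptions and not a test of the set.

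Cps1, which makes carbamoyl phosphate in the first and rate-limiting step of the cycle, had a lowest, median and highest value of 1566, 2108 and 2623 CPM in HF control males and of 2207, 3655 and 3945 CPM in labelled knockouts. All but 1 of the labelled knockouts lay above every control. The log2 fold change was 0.73 (SE 0.14, adjusted p = 0.00186), a 1.66-fold difference. For Ass1, which condenses citrulline with aspartate, the values were 1840, 2439 and 3217 CPM in controls and 2887, 3981 and 4333 CPM in labelled knockouts. The highest control exceeded the lowest labelled knockout, and the log2 fold change was 0.63 (SE 0.13, adjusted p = 0.00376).

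Asl, which splits argininosuccinate into arginine and fumarate, measured 330.4, 412.3 and 472.2 CPM in controls (lowest, median, highest) and 455.9, 601.0 and 706.6 CPM in labelled knockouts. Only the highest control exceeded the lowest labelled knockout, and the log2 fold change was 0.56 (SE 0.11, adjusted p = 0.00166). Arginase 1, encoded by Arg1, releases urea. Arg1 measured 845.3, 994.9 and 1160 CPM in controls and 1006, 1250 and 1413 CPM in labelled knockouts, with overlapping ranges and a log2 fold change of 0.28 (SE 0.09, adjusted p = 0.0345). The Arg1 call did not hold in 9 of the 12 fits that left out 1 library. It was kept only without control replicate 2, labelled knockout replicate 4 or labelled knockout replicate 5, and the adjusted p ran from 0.00915 to 0.0912. It was also lost when libraries were scaled to their totals alone (adjusted p = 0.107) and with all male groups in one fit (adjusted p = 0.106).

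Otc, which makes citrulline, was the urea cycle gene that did not pass with edgeR. Otc measured 307.8, 346.0 and 434.3 CPM in controls and 345.6, 439.2 and 456.9 CPM in labelled knockouts. The ranges overlapped, and the log2 fold change was 0.26 (SE 0.09, adjusted p = 0.0521). Without control replicate 2 or without labelled knockout replicate 4 the adjusted p fell under 0.05, with a lowest value of 0.00952. The DESeq2 Wald test called 9 of the 10 members higher, Otc and Gpt among them, and edgeR with DESeq2 size factors called 8, Otc among them. Of all genes, the Wald test called 1417 higher and 1520 lower, in place of 1204 and 1387. With DESeq2 size factors 1233 were higher and 1345 lower.

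Among the aminotransferases, Tat had the largest difference of the 10 genes. Tat, which starts tyrosine breakdown, measured 233.7, 404.3 and 640.1 CPM in HF control males and 499.4, 1038 and 1303 CPM in labelled knockouts. The lowest labelled knockout lay within the control range. The log2 fold change was 1.20 (SE 0.22, adjusted p = 0.00155), a 2.29-fold difference. Got1, the cytosolic aspartate aminotransferase, measured 132.8, 163.7 and 222.3 CPM in controls and 214.2, 283.7 and 343.8 CPM in labelled knockouts. Its ranges met only through control replicate 2, and the log2 fold change was 0.73 (SE 0.13, adjusted p = 0.00136). Gpt, the alanine aminotransferase used in blood as a sign of liver injury, measured 302.3, 322.1 and 380.8 CPM in controls and 327.7, 369.0 and 428.2 CPM in labelled knockouts. The ranges overlapped and Gpt did not pass (log2 fold change 0.20, SE 0.08, adjusted p = 0.0807).

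The cysteine genes went in different directions. Cdo1, which oxidises cysteine to cysteine sulfinate, measured 1061, 1315 and 1458 CPM in HF control males and 1544, 1649 and 1684 CPM in labelled knockouts. Every labelled knockout lay above every control, and the log2 fold change was 0.33 (SE 0.08, adjusted p = 0.00705). Csad, which decarboxylates cysteine sulfinate to hypotaurine, measured 97.8, 159.9 and 301.7 CPM in controls and 52.6, 97.4 and 169.0 CPM in labelled knockouts. The groups overlapped and the difference did not pass (log2 fold change −0.73, SE 0.28, adjusted p = 0.0796). For Csad and for Gpt the adjusted p was under 0.05 without control replicate 2 or without labelled knockout replicate 4, and Csad was also called lower when libraries were scaled to their totals alone. Control replicate 2 had the highest value of its group in 7 of the 10 genes and labelled knockout replicate 4 the lowest of its group in 9.

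Markers of hepatocytes moved with these genes in HF males. Of the 7 hepatocyte markers found, 6 rose in labelled knockouts. Their summed share of reads ran from 9.54% to 10.8% there and from 7.44% to 9.41% in controls, with no overlap. Of 7 stellate cell and fibroblast markers 4 fell, and their summed share was 0.0265% to 0.0395% against 0.0433% to 0.0729%. Of 5 blood genes 3 rose, at 0.0153% to 0.0747% against 0.0167% to 0.0242%. The 5 urea cycle genes took 0.658% to 1.0% of reads in labelled knockouts and 0.503% to 0.747% in controls. The part of the markers in the result was not tested. In whole-liver RNA, fewer cells of a type and less RNA per cell cannot be told apart.

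**Figure D2:**
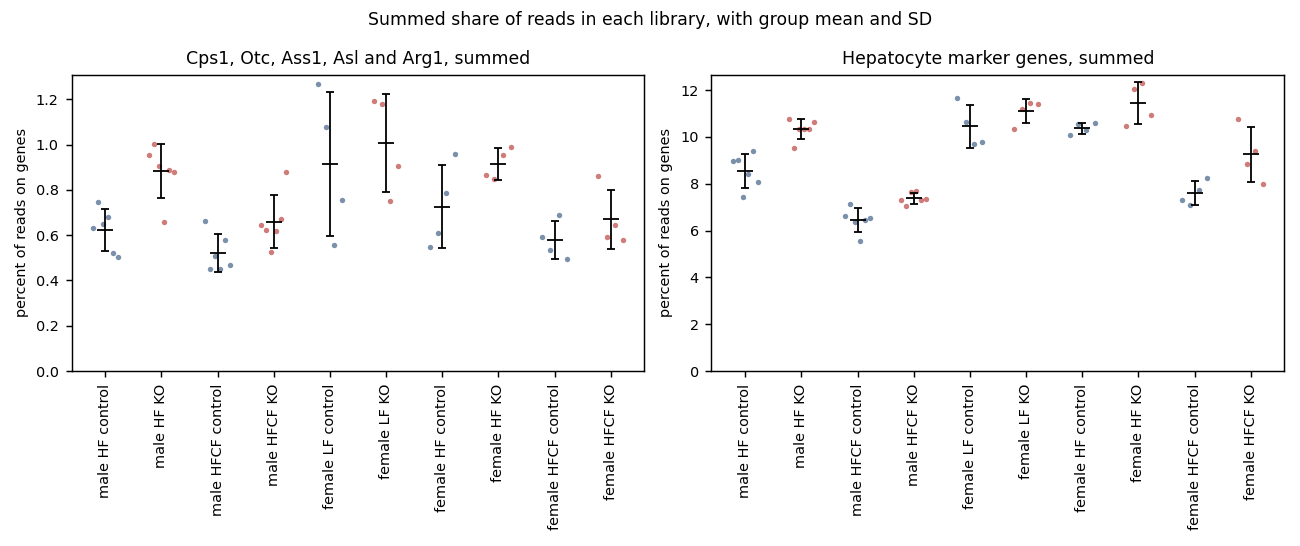
Share of the reads on genes taken by the 5 urea cycle genes (left, percent) and by 7 hepatocyte markers (right, percent) in each library, by group (KO, labelled knockout). Points are libraries and bars give the mean and SD. In HF males the hepatocyte share was 9.54% to 10.8% in labelled knockouts and 7.44% to 9.41% in controls, and in HFCF male controls it was 5.54% to 7.13%.

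In HFCF males no member was called. At an adjusted p under 0.05, 0 of the 10 genes rose and 0 fell, against 0.933% and 1.27% of all tested genes (edgeR). With DESeq2's Wald test 1 member, Csad, was called lower. That test also called more of all genes, 327 higher and 342 lower, in place of 137 and 187 by edgeR. By edgeR 5 members had an unadjusted p under 0.05, as had 2085 of the 14685 genes tested. Csad had a lowest, median and highest value of 200.9, 291.2 and 348.6 CPM in controls and 63.2, 146.3 and 247.6 CPM in labelled knockouts. Most of the labelled knockouts lay below every control, but for 0 of 10 members were the groups fully apart, against 2.22% of all tested genes. The log2 fold change of Csad was −0.86 (SE 0.24, edgeR adjusted p = 0.0776). Tat measured 250.6, 452.3 and 498.9 CPM in controls and 237.5, 629.8 and 894.2 CPM in labelled knockouts, so its lowest value lay in the labelled knockouts (log2 fold change 0.58, SE 0.24, adjusted p = 0.272). The log2 fold changes were 0.43 (SE 0.15) for Ass1, 0.40 (SE 0.18) for Cps1 and 0.35 (SE 0.13) for Asl.

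Single libraries decided these calls in HFCF males. Without control replicate 1, 3 members (Cps1, Ass1 and Asl) were called higher and 1 (Csad) lower. All-gene calls then went from 324 to 1052 (593 higher and 459 lower). Without labelled knockout replicate 3, Tat was called higher and Csad lower. Control replicate 1 had the highest value of its group in 9 of the 10 genes, with a Cps1 level of 2809 CPM against 1234 to 1802 CPM in the other 5 controls. Labelled knockout replicate 3 had the lowest value of its group in 8 genes. None of the 7 hepatocyte markers was called in this comparison, and their summed share was 7.03% to 7.68% in labelled knockouts and 5.54% to 7.13% in controls.

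In females no member was called for the labelled knockout on any diet. In LF females 0 of 10 were called, against 0.0% of all tested genes, 0 had an unadjusted p under 0.05 (355 of all 14285 genes tested), and the DESeq2 Wald test called 0. In HF females 0 were called, against 0.0% of all tested genes. There 2 members, Csad and Ass1, had an unadjusted p under 0.05 (1135 of all 14128 genes tested), and the DESeq2 Wald test called 1, Csad. Of all genes, the Wald test called 18 higher and 42 lower there, in place of 0 and 0 by edgeR. In HFCF females 0 were called in either direction, against 0.0534% of all tested genes (0.0467% lower), and 0 did not overlap, against 5.63%. There 1 member, Cdo1, had an unadjusted p under 0.05 (1340 of all 14980 genes tested), and the DESeq2 Wald test called 0. No fit that left out 1 library called a member in these 3 comparisons.

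Csad in HF females was the clearest case of a difference that did not pass. Its 4 control values were 217.1, 203.0, 88.2 and 73.6 CPM and its 4 labelled knockout values 57.8, 59.0, 59.6 and 67.2 CPM. The groups did not overlap, as for 5.27% of all tested genes, and the controls were far more spread than the labelled knockouts. The log2 fold change was −1.25 (SE 0.32, edgeR adjusted p = 0.522). Ass1 measured 1783, 1782, 3019 and 3725 CPM in HF female controls and 3538, 3751, 4067 and 4455 CPM in labelled knockouts. Its groups overlapped through control replicate 4, and the log2 fold change was 0.62 (SE 0.24, adjusted p = 0.602). In HFCF females Cdo1 measured 911.2, 881.7, 1196 and 916.3 CPM in controls and 1873, 1094, 1317 and 1094 CPM in labelled knockouts (log2 fold change 0.48, SE 0.20, adjusted p = 0.548). In LF females the log2 fold changes of the 10 genes ran from −0.30 (Tat, SE 0.45) to 0.26 (Arg1, SE 0.20).

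**Figure D3:**
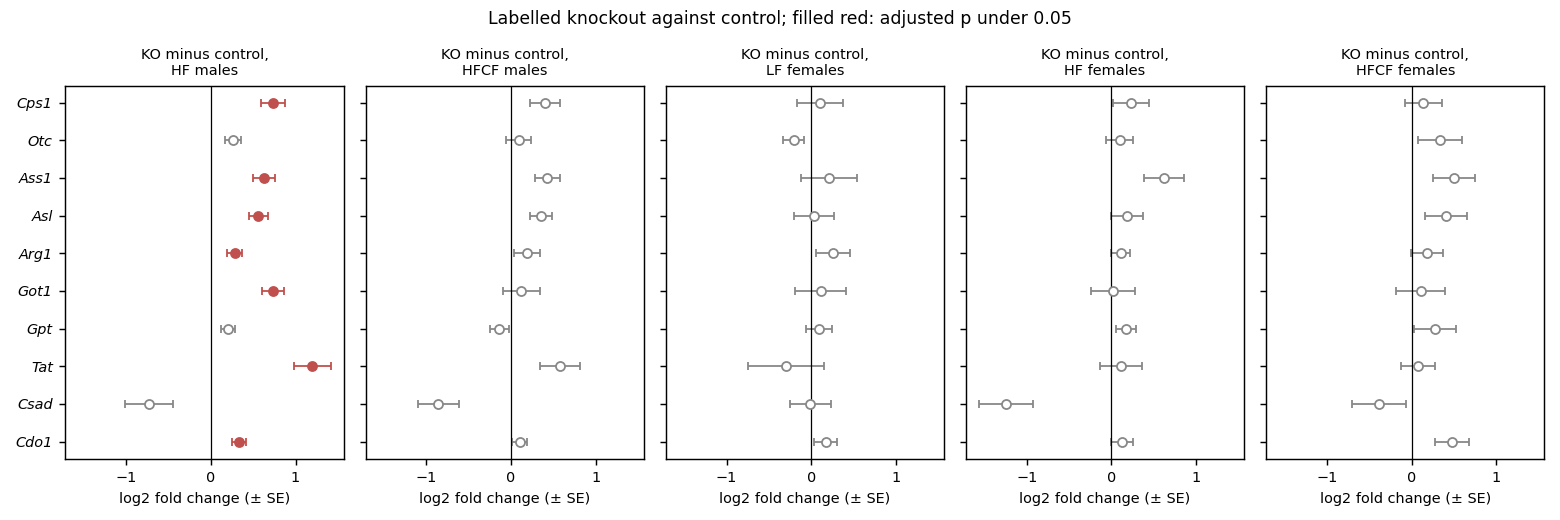
Log2 fold change of labelled knockout (KO) against control, with SE, for the 10 genes (y axis) in the 5 sex and diet settings (panels). Filled red points have an edgeR adjusted p under 0.05. In HF males 7 genes are filled, in the other 4 panels 0, and Csad lies below 0 in all 5 panels, at −0.73, −0.86, −0.01, −1.25 and −0.39 from left to right.

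Whether the effect of the labelled knockout differed between diets or sexes was tested as an interaction. No member passed in any of the 4 such tests. For the diets in males, 0 of 10 members were called against 1.56% of all tested genes. There 3 members (Got1, Gpt and Cdo1) had an unadjusted p under 0.05, all with a lower fold change on HFCF, and the DESeq2 Wald test called 0. Of all 15096 genes tested, 2574 had an unadjusted p under 0.05. The interaction was −0.63 for Got1 (SE 0.27, adjusted p = 0.234), −0.35 for Gpt (SE 0.13, adjusted p = 0.157) and −0.24 for Cdo1 (SE 0.12, adjusted p = 0.284). Without HFCF labelled knockout replicate 6, the male with the highest Got1 level of its group, Got1 was called at an adjusted p of 0.0419. For the sexes on HF, 0 members were called against 0.0% of all tested genes, 2 (Tat and Got1) had an unadjusted p under 0.05 (1590 of all 15024 genes tested), and the DESeq2 Wald test called 0. The male minus female difference of the effect was 1.10 for Tat (SE 0.38, adjusted p = 0.367). For HFCF against HF in females 0 were called against 0.0%, and for the sexes on HFCF 0 against 0.0%. In both, 0 members had an unadjusted p under 0.05 (667 of all 15445 and 1515 of all 15673 genes tested) and the DESeq2 Wald test called 0. The effect in HF males is therefore not shown to differ from that in HFCF males or HF females, and it was not tested against that in LF or HFCF females.

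The number of members called lower on the HFCF diet than on the HF diet ran from 2 to 8 of 10 over 4 comparisons, and Csad was called higher in 2 of the 4. In male labelled knockouts 8 of the 10 genes fell and 0 rose, against 20.0% and 21.6% of all tested genes (41.7% called in all). In male controls 4 fell and 1 rose, against 9.31% and 13.0% (22.3% in all). In female controls 5 fell and 0 rose, against 13.8% and 16.9%. In female labelled knockouts 2 fell and 1 rose, against 6.01% and 8.44%. The HF controls and HF labelled knockouts of each sex also enter the knockout comparisons above.

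Asl and Gpt were called lower in all 4 of these comparisons. Asl measured 330.4, 412.3 and 472.2 CPM (lowest, median, highest) in HF control males and 188.9, 220.0 and 296.4 CPM in HFCF control males. The groups did not overlap, as for 4.56% of all tested genes, and the log2 fold change was −0.79 (SE 0.11, adjusted p = 0.00083). In labelled knockout males Asl measured 455.9, 601.0 and 706.6 CPM on HF and 248.7, 270.9 and 397.6 CPM on HFCF. The groups were again apart (log2 fold change −1.02, SE 0.12, adjusted p = 1.53e-05), as they were for 3 members, Asl, Gpt and Cdo1, and for 19.1% of all tested genes. In female controls the Asl values were 428.4, 601.7, 694.3 and 886.8 CPM on HF and 303.2, 231.6, 362.3 and 217.3 CPM on HFCF, with a log2 fold change of −1.22 (SE 0.23, adjusted p = 0.00767). Asl, Arg1 and Gpt did not overlap there, 3 of 10 against 29.4% of all tested genes. In female labelled knockouts Asl measured 654.2, 744.0, 787.2 and 771.5 CPM on HF and 571.9, 305.7, 324.9 and 258.8 CPM on HFCF. Every HFCF value lay below every HF value (log2 fold change −1.02, SE 0.22, adjusted p = 0.0146), and 2 members, Asl and Csad, did not overlap there, against 19.7% of all tested genes. Without female HFCF labelled knockout replicate 2 the adjusted p of Asl was 0.0514.

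Gpt was lower on HFCF by 0.40 on the log2 scale in male controls (log2 fold change −0.40, SE 0.10, adjusted p = 0.00912). In male labelled knockouts its values were 327.7, 369.0 and 428.2 CPM on HF and 189.7, 219.5 and 257.1 CPM on HFCF. All 6 HFCF values lay below all 6 HF values, and the log2 fold change was −0.76 (SE 0.08, adjusted p = 8.61e-06). In female controls Gpt measured 351.2, 454.7, 463.1 and 522.0 CPM on HF and 231.0, 229.8, 330.7 and 195.3 CPM on HFCF. These groups were also apart, with a log2 fold change of −0.85 (SE 0.17, adjusted p = 0.00916). In female labelled knockouts the fold change was −0.77 (SE 0.22, adjusted p = 0.0395), a call kept in 1 of 8 fits that left out 1 library, that without HFCF labelled knockout replicate 1. That library measured 463.1 CPM, against 206.9 to 261.0 CPM in the other 3.

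Arg1 was called lower on HFCF in 3 of the 4 comparisons. It measured 845.3, 994.9 and 1160 CPM in HF control males and 519.1, 640.6 and 909.7 CPM in HFCF control males. The ranges overlapped through HFCF control replicate 1, and the log2 fold change was −0.57 (SE 0.12, adjusted p = 0.00421). It was −0.68 (SE 0.12, adjusted p = 0.000389) in male labelled knockouts and −0.59 (SE 0.13, adjusted p = 0.0123) in female controls. In female labelled knockouts it was −0.55 (SE 0.18, adjusted p = 0.063). Cps1, Otc and Ass1 were called lower in male labelled knockouts, with log2 fold changes of −0.56 (SE 0.15), −0.52 (SE 0.11) and −0.59 (SE 0.13). Of these 3, Otc alone was also called in another group, the female controls, at −0.74 (SE 0.21, adjusted p = 0.0285). That Otc call was kept in 2 of 8 fits that left out 1 library, those without HF control replicate 1 or HFCF control replicate 3, with adjusted p from 0.00296 to 0.0784.

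Got1 fell on HFCF in both male comparisons. In male labelled knockouts it measured 214.2, 283.7 and 343.8 CPM on HF and 87.8, 110.8 and 228.5 CPM on HFCF. Only HFCF replicate 6 reached the HF range, and the log2 fold change was −1.14 (SE 0.21, adjusted p = 0.000577), the largest of the 10 in that comparison. In male controls the log2 fold change of Got1 was −0.51 (SE 0.15, adjusted p = 0.0224), a call lost without HF control replicate 2 or HFCF control replicate 2, 3, 4 or 6 (adjusted p up to 0.0566). Cdo1 fell in male labelled knockouts (log2 fold change −0.50, SE 0.07, adjusted p = 5.85e-05) and in female controls (−0.58, SE 0.15, adjusted p = 0.0177). In female controls the Cdo1 call was lost without HF replicate 4 or HFCF replicate 1, 2 or 5. Cdo1 did not pass in male controls (−0.26, SE 0.09, adjusted p = 0.0595), but was called without HF control replicate 4 or HFCF control replicate 1 or 3. Tat was called in none of the 4 comparisons, and in male controls its means were 415.3 ± 92.6 CPM on HFCF and 420.3 ± 136.7 CPM on HF.

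Csad was the one member with higher values on HFCF than on HF in all 4 groups. In male controls it measured 97.8, 159.9 and 301.7 CPM on HF and 200.9, 291.2 and 348.6 CPM on HFCF. The ranges overlapped, and the log2 fold change was 0.78 (SE 0.23, adjusted p = 0.0243). That call was lost without HF control replicate 4, HF control replicate 6 or HFCF control replicate 6. In female labelled knockouts Csad measured 57.8, 59.0, 59.6 and 67.2 CPM on HF and 77.2, 293.5, 247.4 and 200.5 CPM on HFCF. Every HFCF value was above every HF value, although replicate 1 only narrowly so, and the log2 fold change was 1.76 (SE 0.33, adjusted p = 0.00849). In male labelled knockouts (0.63, SE 0.29, adjusted p = 0.0896) and female controls (0.91, SE 0.34, adjusted p = 0.066) Csad did not pass. In male labelled knockouts both Csad and Tat were called without HF replicate 4 or without HFCF replicate 6, and Csad in female controls was called without HF replicate 1.

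Single libraries moved the number of members called on HFCF against HF. In male controls it went from 5 to 9 without HFCF control replicate 1 and to 3 without HFCF control replicate 6. In female controls it went from 5 to 8 without HF control replicate 1 and to 3 without HF control replicate 4 or HFCF control replicate 1, 2 or 5. In female labelled knockouts it went from 3 to 9 without HFCF labelled knockout replicate 1 and to 1 without replicate 2. In male labelled knockouts it stayed between 8 and 10. All-gene calls moved in these fits as well. They ran from 2217 to 5429 in male controls (3225 with every library) and from 2454 to 6530 in female controls (4526). In female labelled knockouts they ran from 866 to 4402 (2118) and in male labelled knockouts from 5105 to 6036 (5962). The highest counts in male controls and in female labelled knockouts came without HFCF replicate 1 of the group. Female HFCF labelled knockout replicate 1 had the highest value of its group in 9 of the 10 genes and the lowest for Csad.

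**Figure D4:**
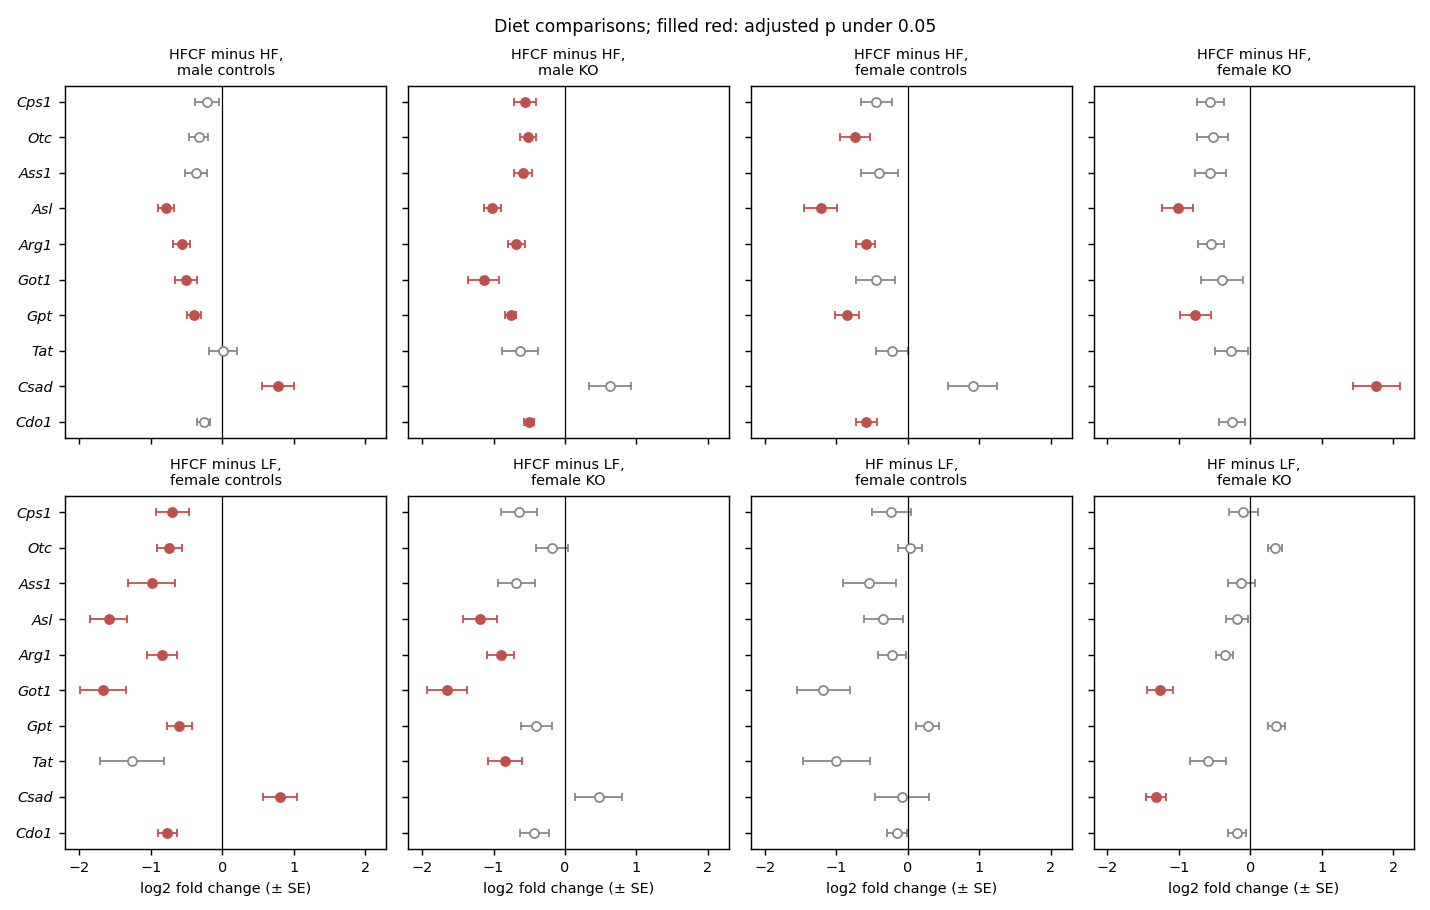
Log2 fold change between diets, with SE, for the 10 genes (y axis) in 8 comparisons (panels; KO, labelled knockout). Filled red points have an edgeR adjusted p under 0.05. Asl is filled and below 0 in the 6 panels with HFCF, between −0.79 and −1.59, and Csad lies above 0 in those 6 panels.

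Markers moved with the HFCF diet too. Of the 7 hepatocyte markers 5 fell in male controls, 6 in male labelled knockouts, 5 in female controls and 0 in female labelled knockouts. Their summed share in male controls was 5.54% to 7.13% on HFCF and 7.44% to 9.41% on HF, and in male labelled knockouts 7.03% to 7.68% and 9.54% to 10.8%. In female controls it was 7.11% to 8.24% and 10.1% to 10.6%, and in female labelled knockouts 7.99% to 10.8% and 10.5% to 12.3%. All 6 cholangiocyte markers rose in male controls, where they took 0.015% to 0.0644% of reads on HFCF and 0.0101% to 0.0213% on HF. Of 7 macrophage markers 6 rose there, at 0.0376% to 0.0892% against 0.0229% to 0.0427%, and of 7 stellate and fibroblast markers 6, at 0.0552% to 0.138% against 0.0433% to 0.0729%. Of 6 lymphocyte markers 1 rose, at 0.00238% to 0.00648% against 0.00213% to 0.00357%, and of 5 endothelial markers 0, at 0.0168% to 0.0301% against 0.0186% to 0.0295%. Among male labelled knockouts 6 of 6 cholangiocyte, 6 of 7 macrophage, 6 of 7 stellate, 2 of 6 lymphocyte and 1 of 5 endothelial markers rose, and 5 of 5 blood genes fell. In female controls 6 of 6, 6 of 7, 2 of 7, 2 of 6 and 4 of 5 of these 5 marker lists rose. Among female labelled knockouts 5 of 5 tested cholangiocyte, 3 of 7 macrophage, 7 of 7 stellate, 0 of 6 lymphocyte and 1 of 5 endothelial markers rose. The part of these markers in the levels of the 10 genes was not tested.

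HFCF was also compared with LF in females. In controls 8 of the 10 genes fell and 1 rose, against 16.8% and 18.4% of all tested genes, and 5 did not overlap, against 33.9%. In labelled knockouts 4 fell and 0 rose, against 3.74% and 8.26%, and 3 did not overlap, against 17.2%. Got1 had the largest difference in both. Its control values were 923.1, 543.4, 308.8 and 382.1 CPM on LF and 172.2, 143.6, 228.1 and 142.2 CPM on HFCF, all HFCF values lying lower (log2 fold change −1.67, SE 0.32, adjusted p = 0.00386). Its labelled knockout values were 627.3, 606.0, 418.7 and 661.2 CPM on LF and 317.8, 134.5, 163.0 and 114.3 CPM on HFCF, again all lower (−1.65, SE 0.28, adjusted p = 0.00493). Asl followed, with −1.59 (SE 0.26, adjusted p = 0.00173) in controls and −1.19 (SE 0.24, adjusted p = 0.00978) in labelled knockouts, and Arg1 with −0.85 (SE 0.21) and −0.90 (SE 0.19).

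Markers moved here too. In controls 6 of 7 hepatocyte markers fell, at 7.11% to 8.24% of reads on HFCF and 9.68% to 11.7% on LF, while 6 of 6 cholangiocyte, 6 of 7 macrophage and 5 of 7 stellate markers rose. In labelled knockouts 2 of 7 hepatocyte markers fell, at 7.99% to 10.8% against 10.3% to 11.4%, and 5 of 5 tested cholangiocyte, 6 of 7 macrophage and 4 of 7 stellate markers rose. Of 5 endothelial markers 3 rose and 1 fell in controls and 0 were called in labelled knockouts, of 6 lymphocyte markers 1 rose in each and 1 fell in controls, and of 5 blood genes 1 rose in each. Their part in the result was not tested.

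In the comparison of HFCF with LF the other urea cycle genes were called in controls only, with log2 fold changes of −0.70 for Cps1 (SE 0.23), −0.74 for Otc (SE 0.17) and −0.99 for Ass1 (SE 0.33). The difference between controls and labelled knockouts in this was not tested. Gpt (−0.60, SE 0.18) and Cdo1 (−0.77, SE 0.13) fell and Csad rose (0.81, SE 0.24, adjusted p = 0.0254) in controls. Tat was called in labelled knockouts (−0.84, SE 0.24, adjusted p = 0.0392), a call kept in 2 of 8 fits that left out 1 library, those without LF replicate 3 or HFCF replicate 1. In controls the Tat values on LF were 2919, 1073, 687.3 and 623.1 CPM and on HFCF 576.0, 409.6, 662.7 and 597.9 CPM. LF control replicate 1 stood far above the others, and Tat did not pass (−1.26, SE 0.45, adjusted p = 0.0511), but was called without LF control replicate 3 or 4. The number of members called in controls was 5 without HFCF replicate 1, 2 or 5, in place of 9. The Cps1 call was also lost without LF replicate 1, 2 or 4, the Ass1 call without LF replicate 1 or 2 and the Gpt call without LF replicate 4. In labelled knockouts it was 10 without HFCF replicate 1 and 2 without HFCF replicate 2, in place of 4. All-gene calls ran from 3474 to 5694 in controls (5199 with every library). In labelled knockouts they were 3587 without HFCF replicate 1 and 681 without HFCF replicate 2, in place of 1754.

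Fewer members were called for HF against LF. In female controls 0 of 10 were called, against 0.696% of all tested genes (0.443% rose and 0.253% fell). There 1 member, Got1, had an unadjusted p under 0.05 (2314 of all 14216 genes tested), and the DESeq2 Wald test called 0. In labelled knockouts 2 fell, Got1 and Csad, against 0.0844% of all tested genes, and 0 rose, against 0.0704%, while 4 (Otc, Arg1, Got1 and Csad) did not overlap, against 8.46%. Got1 measured 627.3, 606.0, 418.7 and 661.2 CPM on LF and 256.9, 207.3, 188.4 and 306.4 CPM on HF. The groups were apart, with a log2 fold change of −1.26 (SE 0.18, adjusted p = 0.0355). In controls, with 923.1, 543.4, 308.8 and 382.1 CPM on LF and 126.9, 269.3, 214.7 and 334.3 CPM on HF, the groups overlapped (−1.18, SE 0.37, adjusted p = 0.163). Csad measured 126.5, 179.1, 128.0 and 176.8 CPM on LF and 57.8, 59.0, 59.6 and 67.2 CPM on HF in labelled knockouts. Its HF values were less than those of any LF library, and the log2 fold change was −1.32 (SE 0.14, adjusted p = 0.0181). In controls the Csad difference was −0.08 (SE 0.38). The Got1 call was kept only without LF replicate 1, LF replicate 3 or HF replicate 4, and the Csad call was lost without LF replicate 2, LF replicate 4 or HF replicate 1. In each of the 3 fits that lost the Csad call, 0 of all tested genes were called, in place of 22. With all 6 female groups in one fit, neither was called.

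Males and females were compared on the HF and HFCF diets. Sex goes with a range of animal numbers in the labels, so a difference of cohort and one of sex cannot be told apart. In HF controls 3 of the 10 genes were lower in males and 0 higher, against 9.58% and 8.52% of all tested genes. Asl measured 330.4, 412.3 and 472.2 CPM (lowest, median, highest) in males and 428.4, 601.7, 694.3 and 886.8 CPM in the 4 females. The ranges overlapped at 1 female, and the log2 fold change was −0.70 (SE 0.16, adjusted p = 0.0131). Gpt measured 302.3, 322.1 and 380.8 CPM in males and 351.2, 454.7, 463.1 and 522.0 CPM in females, with a log2 fold change of −0.45 (SE 0.10, adjusted p = 0.0112). Arg1 differed by −0.42 (SE 0.10, adjusted p = 0.0141), a call lost without female HF control replicate 4. Tat was called lower in males without male HF control replicate 4. Without female HF control replicate 1, which had the lowest value of its group in 8 genes, 8 members were called lower in males in place of 3. All-gene calls then went from 2624 to 5053 (2649 higher and 2404 lower).

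Of the 7 hepatocyte markers 2 were lower and 1 higher in HF control males, and their summed share was 7.44% to 9.41% in males and 10.1% to 10.6% in females, with no overlap. Of 5 endothelial markers 2 were higher in males, at 0.0186% to 0.0295% against 0.0144% to 0.0204%, and of 5 blood genes 1. In HF labelled knockouts 2 hepatocyte markers were lower and 1 higher in males, at 9.54% to 10.8% against 10.5% to 12.3%, and 1 blood gene was higher. Their part in the result was not tested.

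In HF labelled knockouts 1 member, Gpt, was lower in males and 0 were higher, against 7.02% and 7.32% of all tested genes. Gpt measured 327.7, 369.0 and 428.2 CPM in males and 492.9, 461.0, 527.2 and 525.4 CPM in females. No male reached the lowest female, 1 of 10 members without overlap against 12.9% of all tested genes, and the log2 fold change was −0.41 (SE 0.08, adjusted p = 0.00668). Without male labelled knockout replicate 2 Asl was called lower too, and without replicate 6 Csad was called higher. On HFCF, 0 members were called in controls, against 2.63% of all tested genes, and 0 in labelled knockouts, against 5.40%. There 3 and 1 members had an unadjusted p under 0.05 (2269 of all 15054 and 3480 of all 15017 genes tested), and the DESeq2 Wald test called 0 in both. Without male HFCF control replicate 1, Arg1 and Got1 were called lower in HFCF control males, and all-gene calls went from 396 to 638 (273 higher and 365 lower). The effect of HFCF against HF did not differ between the sexes at an adjusted p under 0.05 for any member. Of the 10 genes 0 passed in controls, against 0.00646% of all tested genes, and 0 in labelled knockouts, against 0.013%. In each, 1 member had an unadjusted p under 0.05, and the DESeq2 Wald test called 0. The member was Gpt in controls (0.46, SE 0.19) and Csad in labelled knockouts (−1.10, SE 0.48). Of all genes tested, 2561 of 15491 and 1829 of 15400 had an unadjusted p under 0.05.

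Genes around the 10 were read from 9 lists of amino acid metabolism with 111 genes, all of which were found and 107 or 108 of which passed the low-count filter. The lists, like the 10 genes, were chosen with earlier results of these data known, and the counts below carry no test of a list. In labelled knockouts against controls in HF males, 47 of 107 rose and 5 fell, against 8.57% and 9.88% of all tested genes, with a median log2 fold change of 0.21, beside 0.00 for all tested genes. On HFCF against HF 83 fell and 4 rose in male labelled knockouts, 50 and 3 in male controls, 53 and 4 in female controls and 27 and 2 in female labelled knockouts. The shares of all tested genes that fell in these comparisons were 20.0%, 9.31%, 13.8% and 6.01%, and those that rose 21.6%, 13.0%, 16.9% and 8.44%. On HFCF against LF 54 fell and 5 rose in female controls (16.8% and 18.4% of all tested genes) and 15 fell and 5 rose in labelled knockouts (3.74% and 8.26%). In HF males compared with HF females, 29 were lower and 5 higher in controls, against 9.58% and 8.52% of all tested genes. In labelled knockouts 13 were lower and 8 higher, against 7.02% and 7.32%. In the other comparisons of 2 groups at most 2 were called.

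**Figure D5:**
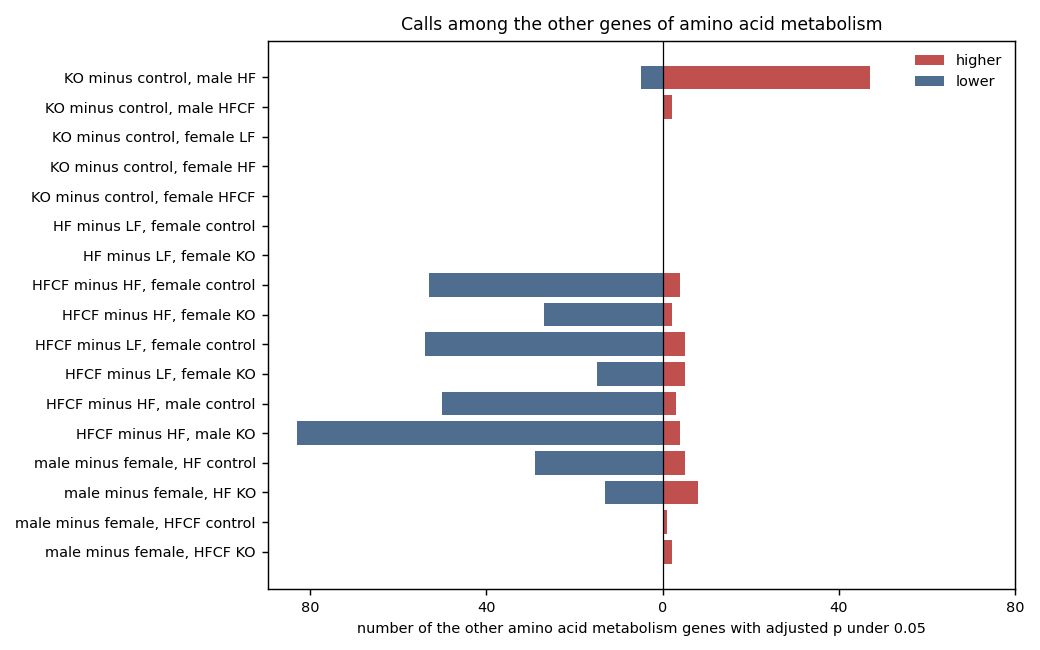
Number of genes of the 9 lists (x axis) with an edgeR adjusted p under 0.05, to the right of 0 where the first-named group was higher and to the left where it was lower, in the 17 comparisons of 2 groups (KO, labelled knockout). The longest bars are 47 genes higher in labelled knockout HF males and 83 lower on HFCF in male labelled knockouts.

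These counts depended on scaling and on single libraries. When libraries were scaled to their totals alone, the median of all tested genes moved by −0.09 in HF males for the labelled knockout and to between 0.12 and 0.21 for HFCF against HF or LF. All-gene calls for the labelled knockout in HF males then split into 687 higher and 2247 lower, in place of 1204 and 1387, and those for HFCF in male labelled knockouts into 5493 and 966, in place of 3095 and 2867. For HFCF against HF they split into 2835 and 675 in male controls (1877 and 1348 with TMM), 3773 and 797 in female controls (2490 and 2036) and 1745 and 443 in female labelled knockouts (1237 and 881). For HFCF against LF they split into 4665 and 917 in controls (2721 and 2478) and 1632 and 295 in labelled knockouts (1207 and 547). For males against females they split into 1845 and 846 in HF controls (1235 and 1389) and 204 and 224 in HFCF labelled knockouts (512 and 299). The 10 members then split into 6 higher and 1 lower in labelled knockout HF males, and on HFCF against HF into 1 and 5 in female controls and 1 and 8 in male labelled knockouts. On HFCF against LF they split into 1 and 5 in controls and 0 and 3 in labelled knockouts. The list genes split into 37 higher and 7 lower in labelled knockout HF males, and for HFCF against HF into 8 and 58 in male labelled knockouts, 3 and 39 in male controls, 7 and 35 in female controls and 2 and 25 in female labelled knockouts. For HFCF against LF they split into 9 and 37 in female controls and 6 and 12 in labelled knockouts, and for males against females on HF into 14 higher and 19 lower in controls. Without male HFCF control replicate 1 the list genes called went from 2 to 27 for the labelled knockout in HFCF males, where 9 of the 12 fits that left out 1 library called 0, and for HFCF in male controls from 53 to 88. Without female HFCF labelled knockout replicate 1 they went from 29 to 81 against HF and from 20 to 59 against LF. Other single libraries took the counts for HFCF down to 30 of 57 in female controls against HF and 35 of 59 against LF, 8 of 29 and 2 of 20 in female labelled knockouts, and 32 of 53 in male controls. Without female HF control replicate 1 the 34 calls between HF control males and females became 65. All-gene calls moved too. Without male HFCF control replicate 1 they went from 324 to 1052 for the labelled knockout and from 3225 to 5429 for HFCF in male controls. Without female HFCF labelled knockout replicate 1 they went from 2118 to 4402 against HF and from 1754 to 3587 against LF. Without female HF control replicate 1 they went from 2624 to 5053 between the sexes.

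Among the genes that feed the urea cycle, Gls2, the liver glutaminase, rose in labelled knockout HF males (494.8 ± 62.7 against 310.1 ± 44.4 CPM, log2 fold change 0.67, SE 0.10, adjusted p = 0.000387). It fell on HFCF in all 6 comparisons with HF or LF, by 0.86 to 1.48 on the log2 scale. Car5a, the mitochondrial carbonic anhydrase that supplies bicarbonate to Cps1, rose in labelled knockout HF males (log2 fold change 0.49, SE 0.08). Slc38a3, a glutamine transporter, rose as well (0.53, SE 0.10). Of the 15 genes of this list tested there, 5 rose and 1 fell. Aldh18a1, which makes proline and ornithine precursors from glutamate, went the other way on HFCF: it was higher in all 6 comparisons, for example at 4.59 ± 1.26 CPM against 1.93 ± 0.424 CPM on HF in male labelled knockouts.

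Of the other aminotransferases, Agxt, which detoxifies glyoxylate, rose in labelled knockout HF males (285.7 ± 35.9 against 165.8 ± 22.5 CPM, log2 fold change 0.78, SE 0.10). It was lower on HFCF in 4 of the 6 comparisons, most in female controls against LF (122.6 ± 38.5 against 465.6 ± 156.1 CPM, −1.94, SE 0.26). Psat1, of serine synthesis, was low throughout and went the other way: it was higher on HFCF in all 6 comparisons, at 2.48 ± 0.576 against 0.915 ± 0.50 CPM in male labelled knockouts, and lower in labelled knockout HF males (−0.82, SE 0.27, adjusted p = 0.0464).

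The lists of amino acid breakdown differed in how many genes rose in labelled knockout HF males, where 8.57% of all tested genes rose. Of 7 genes of phenylalanine and tyrosine breakdown 6 rose, among them Hpd, the next enzyme after Tat (2057 ± 337.8 against 1139 ± 213.2 CPM, log2 fold change 0.85, SE 0.13). Of 8 genes of tryptophan breakdown 7 rose, Haao by 0.47 (SE 0.07). Of 10 genes of histidine, proline and lysine breakdown 6 rose, Hal, which opens histidine breakdown, by 0.83 (SE 0.17). Of 16 genes of branched-chain breakdown 2 rose, Ivd and Acadsb, and 0 fell, a share near that of all tested genes. On HFCF against HF in male labelled knockouts, 7 of 7, 7 of 8, 10 of 10 and 13 of 16 genes of these 4 lists fell, against 20.0% of all tested genes. Hal fell by 1.57 on the log2 scale there (SE 0.20, 144.7 ± 47.8 against 434.7 ± 95.7 CPM).

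In the methionine, cysteine and taurine list, 10 of 18 genes rose and 1 fell in labelled knockout HF males. Gnmt, which disposes of methyl groups, rose by 0.69 (SE 0.10). Bhmt2 and Slc6a6, the taurine transporter, were the 2 list genes called also in HFCF males, with Slc6a6 at 182.4 ± 10.6 against 151.1 ± 12.4 CPM (0.27, SE 0.07, adjusted p = 0.0444). On HFCF neither was called without control replicate 2, 3, 5 or 6 or without labelled knockout replicate 1, 2, 4, 5 or 6, that is in 9 of 12 fits. Mat1a, which makes S-adenosylmethionine, was lower on HFCF in all 6 comparisons, for example at 2471 ± 425.7 against 3799 ± 294.9 CPM in male controls. Among the regulators, Klf15, a transcription factor of amino acid breakdown, rose in labelled knockout HF males (177.0 ± 42.4 against 102.2 ± 20.6 CPM, 0.79, SE 0.16), and Sirt3, a mitochondrial deacetylase, was lower on HFCF in all 6 comparisons. Gcgr, the glucagon receptor, was lower on HFCF in 4 of the 6. Between the sexes on HF, Hpd was lower in control males (1139 ± 213.2 against 2401 ± 938.5 CPM, −1.08, SE 0.23), while Gclc, of glutathione synthesis, was higher (433.9 ± 53.4 against 256.0 ± 33.5 CPM, 0.75, SE 0.11).

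The patterns over the 10 group means were set beside those of 8475 genes whose mean reached 10 CPM. The correlations are descriptions over 10 points that share libraries and diets, and carry no test. The pattern most like that of Got1 was that of Sds, serine dehydratase (Pearson r = 0.99 on log2 CPM). Ass1 was most like Haao (r = 0.979) and Gnmt (r = 0.977), Asl most like Plg (r = 0.992) and Gpt most like Dcxr (r = 0.994) and Aldh4a1 (r = 0.984). Cps1 was most like Paics (r = 0.982), Otc like Rnf5 (r = 0.992), Arg1 like Capn10 (r = 0.992) and Cdo1 like Ss18l2 (r = 0.996). Tat and Csad had the least close partners, Zbtb5 (r = 0.953) and Stx3 (r = 0.959).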

How the data were processed

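Whole-liver RNA-seq of 48 mice was read from 11 deposited tables, 1 per comparison. The values used are the deposited read counts per gene and library, which are whole numbers. Per the submitters' processing notes, STAR 2.6.1, HTSeq 0.6.1, DESeq2 and the builds GRCm38 and mm10 were used, and the annotation is not given in the sources used here. The tables also hold a normalised signal, FPKM, log2 fold changes and p-values computed by the authors, of which the signal and FPKM served only to check that each is the count times 1 factor. A library's counts were equal wherever they were repeated (0 of 1341082 values differed), so the tables were joined into 1 matrix of 29221 genes. Gene coordinates equal those of GENCODE M21 (GRCm38) for 97.3% of the genes that both hold.

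CPM values are counts scaled by TMM factors (0.884 to 1.2) from edgeR 4.0.16 in R 4.3.3. Each comparison was fitted to its groups alone with edgeR's quasi-likelihood test after filterByExpr, with Benjamini-Hochberg adjustment of p-values across the genes of that fit, and a gene is called (rose, fell) at an adjusted p under 0.05. SEs are those implied by the test. There were 17 comparisons of 2 groups and 6 interactions. The fit was tested on simulated data. Named list genes are up to 3 per list and family of comparisons (labelled knockout, diet, sex), called in the most comparisons, then by the largest mean absolute log2 fold change, with a mean of at least 1 CPM (some list genes that the rule names are not reported here); per member the 2 genes with the highest r were listed, and a selection is printed. Alternatives were DESeq2 1.42.0 size factors and Wald test, other count filters, a log2 fold change of at least 1, all groups in one fit, a replicate block, each library left out, and, added after seeing the data, library totals only. The members and lists were chosen with earlier results of these data known. Marker genes of 10 cell types or tissues were summed as percent of the deposited counts of a library (the hepatocyte marker Tf was not found by symbol). Replicate numbers did not pair the samples: in none of the 17 comparisons did every same-numbered pair correlate above 0.1.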

Additional observations from a re-analysis of the deposited data

Results flagged for a closer look

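In 11 of 100 combinations of gene and group, 1 library stood apart from the others of its group by more than Dixon's 95% limit, where chance gives about 1 in 20. The part of any cause was not tested.

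Male HFCF control replicate 1 was the highest for Cps1 (2808.6 CPM, others 1234.1 to 1801.7), Otc (411.2 CPM, others 239.1 to 259.4) and Got1 (178.9 CPM, others 94.1 to 118.2). Male HFCF labelled knockout replicate 6 was the highest for Ass1 (3578.5 CPM, others 1973.0 to 2450.1), Arg1 (1057.8 CPM, others 612.5 to 773.9) and Got1 (228.5 CPM, others 87.8 to 132.0). Female HFCF labelled knockout replicate 1, the library with the fewest reads (15338239), was the highest for Otc (537.0 CPM, others 243.3 to 285.3) and Ass1 (4173.5 CPM, others 2090.1 to 2387.9).

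Among the HF males, labelled knockout replicate 4 was the lowest for Cps1 (2207.4 CPM, others 3436.8 to 3944.9) and control replicate 2 the highest for Got1 (222.3 CPM, others 132.8 to 164.4). Female HFCF control replicate 3 was the highest for Cdo1 (1195.5 CPM, others 881.7 to 916.3).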

How the results depend on the processing

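No called member changed direction under any alternative run. Of 47 calls of a member in a comparison, 22 were kept under every alternative fit named in the next sentence and every fit that left out 1 library. The DESeq2 size factors, the Wald test and both other count filters kept 47 each, library totals 42, all groups in one fit 38 and the replicate block 32. With the replicate block the members called were 0 for HFCF against HF in female controls (5 without it), 2 for HFCF against LF in female controls (9 without it), 0 for males against females in HF controls (3) and 2 in HF labelled knockouts (1). All-gene calls fell with the block too. For HFCF against HF in female controls they went to 0 higher and 0 lower, in place of 2490 and 2036. For HFCF against LF in female controls they went to 1330 and 706, in place of 2721 and 2478. For males against females they went to 852 and 825 in HF controls (1235 and 1389) and to 552 and 501 in HF labelled knockouts (1044 and 1001). The numbers did not pair the samples. In the 2 comparisons of female HFCF controls 3 numbers were shared by both groups, and in those between the sexes 4. A library whose number the other group lacked had a block term to itself and so did not enter the comparison. Fewer libraries were thus left to estimate the spread, and the block cannot show whether the calls lost there are stable. The 32 and 22 kept calls above count these losses.

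The DESeq2 Wald test called 1 member for the labelled knockout in HFCF males and 1 in HF females (0 in both by edgeR), 5 for HFCF against HF in female labelled knockouts (3) and 2 for sex in HF labelled knockouts (1). All-gene calls rose with that test too. For the labelled knockout they were 327 higher and 342 lower in HFCF males (137 and 187 by edgeR) and 18 and 42 in HF females (0 and 0). For HFCF against HF in female labelled knockouts they were 1797 and 1224 (1237 and 881). For sex in HF labelled knockouts they were 1277 and 1173 (1044 and 1001). With all groups in one fit, 0 were called for HF against LF in female labelled knockouts (2) and 0 for sex in HF labelled knockouts (1), and without a count filter 2 in the latter. Of the called members, a log2 difference of 1 or more in either direction was reached by 1 for the labelled knockout in HF males. It was reached on HFCF against HF by 1 in female controls, 0 in male controls and 2 in male labelled knockouts. In female labelled knockouts it was reached on HFCF against HF by Asl and Csad and on HF against LF by Got1 and Csad. On HFCF against LF it was reached by 2 in controls and 2 in labelled knockouts. For sex it was reached by 0 in HF controls and 0 in HF labelled knockouts. All-gene counts under this rule are not reported here.

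Leaving out 1 library at a time gave 0 to 4 members called for the labelled knockout in HFCF males and 0 to 2 for HF against LF in female labelled knockouts. For HFCF against HF it gave 3 to 8 in female controls, 1 to 9 in female labelled knockouts and 3 to 9 in male controls, and for HFCF against LF 5 to 10 in controls and 2 to 10 in labelled knockouts. For sex it gave 2 to 8 in HF controls, 1 to 2 in HF labelled knockouts and 0 to 2 in HFCF controls, and for the interaction of labelled knockout and diet in males 0 to 1. All-gene calls moved as well. They ran from 185 to 1052 for the labelled knockout in HFCF males (324 with every library) and from 0 to 124 for HF against LF in female labelled knockouts (22). For sex they ran from 1340 to 5053 in HF controls (2624), 1278 to 2002 in HF labelled knockouts (2045) and 183 to 638 in HFCF controls (396). For the interaction they ran from 119 to 412 (235). Those for HFCF against HF or LF are given above. Each member had at least 810 reads in every library, so counting error was small beside the spread between mice, which the number of mice per group limits.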
